A study of Homo sapiens and Mus musculus with 20 samples.

Results

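The clustered protocadherin genes were examined as a set of 53 among 20033 protein-coding gene entries of GENCODE release 44. Members were all protein-coding genes with symbols beginning PCDHA, PCDHB, PCDHGA, PCDHGB or PCDHGC that lie between 140.7 and 141.6 Mb of human chromosome 5 (GRCh38). They comprised 15 alpha, 16 beta and 22 gamma genes, all on the plus strand, from 140786136 to 141512977. ATAC-seq, which reads open chromatin from where the transposase Tn5 can insert adapters, was run in SW480, an established human colorectal adenocarcinoma line. The cells were exposed for 12 to 16 h to the sodium salt of a short-chain fatty acid that gut bacteria make from fibre, either propionate (NaPr, 10 mM) or butyrate (NaBu, 1 mM), or left untreated. Each treatment had 3 libraries and 3 untreated libraries of its own, whose labels carry another date than those of the other experiment, and each of the 12 libraries started from 50000 viable cells of the same line by the Omni-ATAC protocol. Because the doses and dates differed, the experiments are given side by side and were not tested against each other. The labels do not say whether replicates were separate cultures, so p-values cover only the spread between these libraries, which may be technical.

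Protocadherins are calcium-dependent adhesion proteins of the cadherin superfamily. In the cluster, each alpha and gamma gene supplies a large variable first exon with its own promoter, which is spliced to constant exons shared by the family, whereas beta genes have a single large exon. The genes are best known from neurons, where each cell uses a few of them and so acquires a surface identity; promoter choice there depends on DNA methylation, CTCF and cohesin, and alpha promoters loop to a downstream enhancer. In colorectal and other tumours the cluster is known for promoter hypermethylation. No methylation or expression was measured in the libraries analysed here.

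The promoter sequences show why the families were treated apart. RefSeq promoters (GRCh38.p14, 250 bases before to 50 after each start) were matched for 47 of the 53 members, and each family shared a 10-base word that contains the letters cgct. The alpha word tgatgtcgct was in 8 of 13 alpha promoters and in 0.0587% of all 15345 promoters, the beta word ggtggcgctg in 12 of 14 and 0.365%, and the gamma word gcgccgctgt in 9 of 20 and 0.182%, with both strands searched. The words are the 10-mers found in most promoters of each family, and 2 words overlapping the alpha word had the same count. No member promoter held the word of another family. The following stretches show the word in capitals with 20 bases on each side, first PCDHA4 (chr5:140806969-140807018), then 2 beta genes, PCDHB8 (chr5:141177768-141177817) and PCDHB16 (chr5:141182301-141182350), and 2 gamma genes, PCDHGB1 (chr5:141350017-141350066) and PCDHGB4 (chr5:141387609-141387658). In each pair the first gene had a peak at its start and the second had none in any library.
PCDHA4: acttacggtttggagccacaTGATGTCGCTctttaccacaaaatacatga
PCDHB8: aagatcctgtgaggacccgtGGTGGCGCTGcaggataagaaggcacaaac
PCDHB16: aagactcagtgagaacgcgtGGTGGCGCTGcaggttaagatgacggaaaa
PCDHGB1: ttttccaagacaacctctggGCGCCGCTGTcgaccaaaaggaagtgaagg
PCDHGB4: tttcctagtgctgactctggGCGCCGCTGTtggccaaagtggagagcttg

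The word was therefore no mark of the starts with a peak. Of the 12 beta promoters with the word, 5 had a peak in 6 or more libraries and 7 in none. PCDHA11 lacked the complete alpha word. Its start had a peak in 3 treated and 0 untreated libraries of the NaBu experiment, and in 1 untreated and 1 treated library of the NaPr experiment. The only CGCT of its promoter, 58 bases before the RefSeq start, is shown in capitals in the 30 bases at chr5:140868886-140868915.
PCDHA11: aggcgcaaggtgtCGCTctttacttggtgg

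The C-type genes, which are the most divergent members and lie at the ends of the alpha and gamma groups, had other promoters. PCDHAC1 and PCDHGC3, the members with the highest ranks, lacked the family word, and their promoters held 66% and 59% G+C, against a median of 39.7% over the 47 members and 63% over all promoters. A promoter rich in G+C did not go with a peak in each case: PCDHGC4, another C-type gene, held 60.7% G+C and 23 CpG, against 18 CpG in PCDHGC3, and had no peak at its start in any library. The bases before their starts are shown with CGCT, read on either strand, in capitals (chr5:140926049-140926298 and chr5:141475716-141475946).
PCDHAC1: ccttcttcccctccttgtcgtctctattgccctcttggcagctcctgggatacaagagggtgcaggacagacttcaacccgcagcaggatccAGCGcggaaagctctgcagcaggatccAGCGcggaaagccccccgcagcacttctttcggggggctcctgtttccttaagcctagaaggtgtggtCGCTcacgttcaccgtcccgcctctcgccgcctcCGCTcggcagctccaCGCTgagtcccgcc
PCDHGC3: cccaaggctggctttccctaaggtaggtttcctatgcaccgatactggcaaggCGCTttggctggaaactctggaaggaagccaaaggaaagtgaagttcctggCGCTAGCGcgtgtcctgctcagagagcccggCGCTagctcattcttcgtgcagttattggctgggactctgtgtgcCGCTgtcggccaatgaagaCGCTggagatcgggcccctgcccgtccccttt

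Several common promoter letters were rare in the cluster. The GC box gggcgg was in 1 of 47 member promoters and 59.5% of all promoters, while tataa was in 17 of 47 and 16.8%. The letters cgct were in 46 of 47 and 81.6%. The first of 2 core forms of the CTCF motif was in 1 of 47 against 13.03%, and the other was in 0 of 47 against 1.06%. Only exact letters were counted, so CTCF sites that depart from these forms were missed, and the counts do not show that such sites are absent. The AP-1 form tgantca was in 1 of 47 and 5.66%, and the cAMP response element tgacgtca in 0 of 47 and 2.61%. Both strands were searched for each, and cgct lies inside each family word, so those counts overlap. The median CpG count was 7 in member promoters and 22 in all promoters.

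**Figure D1:**
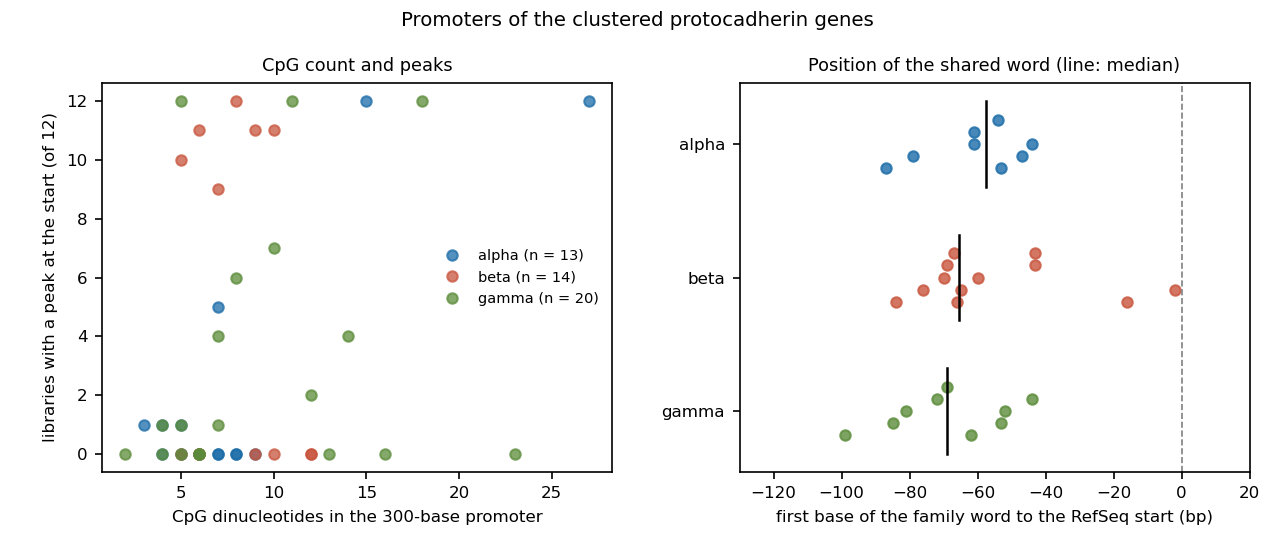
Left: libraries with a peak within 1 kb of the start, of 12, against the CpG dinucleotides of the 300-base RefSeq promoter, 1 point a member (n = 47, colours by family). Right: distance from the first base of the family word to the RefSeq start, with a line at the median of -57.5 bp for alpha, -65.5 bp for beta and -69 bp for gamma; 1 beta word, that of PCDHB8, lies at -2 bp.

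Most members had no listed peak at the start. A peak within 1 kb of the start was found in all 12 libraries for 7 members (PCDHAC1, PCDHAC2, PCDHB11, PCDHB14, PCDHGA10, PCDHGB7 and PCDHGC3), in 6 to 11 libraries for 7, in 1 to 5 for 11 and in none for 28. For PCDHGA10 in the untreated NaBu libraries, that peak lay in a region with its summit at -1206 bp from the start. The beta family split into 7 genes with a peak in at least 9 libraries and 9 genes with none, whereas 11 alpha and gamma genes were found in only a few libraries. In the untreated libraries 18.9 to 24.5% of members had a peak at the start, against 69.0 to 71.8% of all protein-coding genes. The gap was smaller when other genes with as few CpG dinucleotides were taken: a peak in every library was found for 12.8% of the 47 matched members, for 65.7% of 15298 other genes, and for 38.1% of the 1775 other genes with 5 to 10 CpG, the middle range of the members.

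The summits at starts with a peak mostly sat on the promoter. The tested region at a start is the merged region within 1 kb that held a peak in at least 2 libraries of an experiment. Its strongest summit lay between -105 and 26 bp from the GENCODE start for 13 of 16 members tested in the NaPr experiment, and between -105 and 23 bp from it for 13 of 17 in the NaBu experiment. The exceptions in both were PCDHAC1, with its summit 275 and 274 bp after the start in the 5′ UTR, PCDHAC2, 264 and 261 bp after it, and PCDHA11, 767 and 762 bp after it. The PCDHA11 summits lay -7 and -12 bp from its RefSeq start, which is 774 bp downstream of the GENCODE start. For PCDHGA10 in the NaBu experiment the region with the highest mean rank had its summit in a PCDHGB6 exon, at -1206 bp from the start. Alpha and gamma genes overlap one another, and beta genes are close copies, so reads that fit several members could have been placed at either, and the values below carry that uncertainty.

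**Figure D2:**
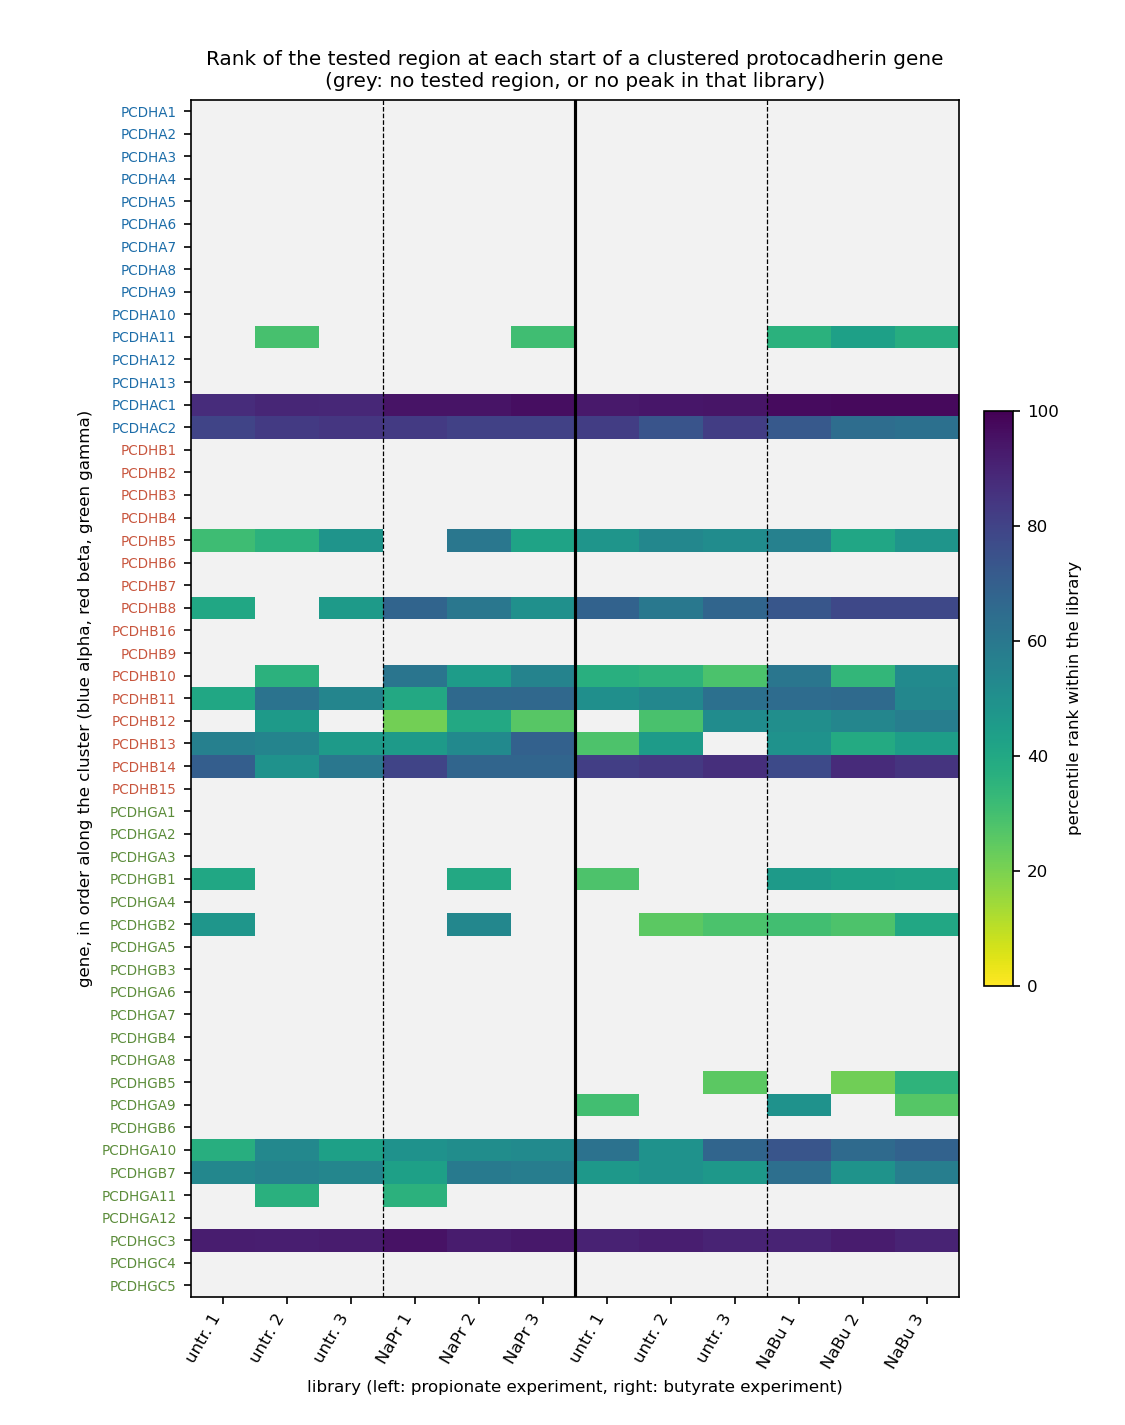
Percentile rank of the tested region at each of the 53 starts (rows, in order along the cluster) in the 12 SW480 libraries (columns); grey cells have no tested region or no peak. PCDHAC1, PCDHAC2, PCDHB14 and PCDHGC3 stand out as dark rows, and the beta genes from PCDHB8 to PCDHB14 form a block with 1 gap at PCDHB16 and PCDHB9.

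The height of a region was expressed as the percentile that its strongest peak (largest −log10 p) reached among all tested regions of that library, with 0 for no peak. Ranks served because the lists of each library end at different strengths: the weakest listed −log10 p was 3.37 to 6.53 in the NaPr experiment and 7.25 to 9.38 in the NaBu experiment. A rank of 0 thus means that no peak was listed, and depth is unknown. Differences are in percentile points, treated minus untreated, and were called at an adjusted p under 0.05 by limma over all regions with Benjamini-Hochberg adjustment.

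More members had a listed peak after treatment in both experiments. With NaPr the number was 13, 13 and 10 in the untreated libraries and 17, 14 and 15 in the treated libraries. With NaBu it was 13 in each untreated library and 16, 16 and 18 in the treated ones. The groups did not overlap in either experiment, while over all protein-coding genes the counts ran from 14223 to 14378 untreated and 14103 to 14272 with NaPr, and from 13822 to 13897 untreated and 13772 to 13914 with NaBu. The lists also held more intervals with NaBu (126008 to 128955 against 108442 to 120971). In lists shortened to their 50000 strongest intervals, the members with a peak were 4, 3 and 3 untreated and 5, 5 and 6 with NaPr, which did not overlap, and 5, 4 and 7 untreated and 8, 6 and 5 with NaBu, which did.

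In the NaPr experiment 16 member starts were tested, and 1 was called higher and 0 lower. Over all starts tested, 1.35% were higher and 8.55% lower; a single start read against that background is no result about the set. At an unadjusted p under 0.05 there were 3 of the 16, against 28.2% of all starts tested, so a larger share of the other genes passed that level. The median change of the 16 was 2.73 percentile points, against -0.836 over 14585 protein-coding starts. PCDHB10 and PCDHB12 passed the filter of 2 libraries only with their treated group, so that median is a description. The sets began at different heights, with a median untreated rank of 41.5 for the members and 90.7 for all starts, and a start near the top of the scale has less room to rise. In the NaBu experiment 17 starts were tested, and 4 were called higher and 1 lower, against 7.26% higher and 24.4% lower over all starts. Of the 4, PCDHA11 entered the test through its treated libraries alone. PCDHGB1 had a peak in 1 untreated library, so it too passed the filter of 2 libraries only with its treated group. The calls of both are no support. At an unadjusted p under 0.05 there were 6 of the 17, against 43.0% of all starts. The median change of the 17 was 10.5, against -0.9997 over 14269 starts, and the median untreated rank was 47.4 against 90.4. PCDHGB5, whose change is that median, and PCDHGA9 also passed the filter only with their treated group. The median is thus a description and no support.

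PCDHAC1, the C-type alpha gene with a promoter of its own type, was the only member start called in both experiments. With NaPr its rank was 87.2, 89.1 and 89.0 untreated and 94.8, 94.6 and 96.3 treated. The groups did not overlap, and the change was 6.78 ± 0.909 (SE, n = 3 and 3; limma adjusted p = 0.00679). With NaBu the rank was 93.3, 94.1 and 94.4 untreated and 96.9, 97.5 and 97.5 treated, a change of 3.35 ± 0.487 (limma adjusted p = 0.00218). The NaBu difference was in the rank of −log10 p within a library. The −log10 p itself overlapped, at 256, 177 and 216 untreated and 250, 274 and 278 treated. So did the fold enrichment over background, at 22.0, 21.7 and 23.01 untreated and 22.0, 22.4 and 22.5 treated. Ranked by fold the change was -0.17. With NaPr the fold enrichment was 14.1, 15.3 and 17.9 untreated and 17.8, 18.7 and 22.0 treated, which overlapped, and ranked by fold the change was 3.28 (limma adjusted p = 0.15). The NaPr call was lost without any 1 library other than untreated replicate 1, with limma adjusted p of 0.0504 without untreated replicate 2, 0.0539 without untreated replicate 3, and 0.0534, 0.054 and 0.056 without NaPr replicates 1, 2 and 3.

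PCDHAC2, the neighbouring C-type alpha gene, went the other way with NaBu. Its NaBu ranks were 81.7, 73.9 and 81.7 untreated and 72.3, 64.3 and 63.3 treated, with no overlap (change -12.5 ± 3.34 SE, limma adjusted p = 0.0216). The fold enrichment was 14.5, 10.8 and 13.7 untreated and 9.92, 8.57 and 8.45 treated. The call was lost without untreated replicate 1 (limma adjusted p = 0.0873), untreated replicate 3 (0.0822), NaBu replicate 2 (0.0793) or NaBu replicate 3 (0.0786). With NaPr the ranks of 79.4, 82.8 and 84.4 untreated and 83.0, 80.7 and 80.7 treated overlapped (change -0.72, limma adjusted p = 0.855). The antisense lncRNA ENSG00000279028 has its start near the region, with the NaPr summit at -244 bp from it, and ATAC-seq cannot assign the region to either gene.

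PCDHGC3, the remaining C-type gene with a peak in every library, stayed near the top of each list. Its ranks were 92.1, 91.4 and 92.5 untreated against 95.1, 92.4 and 93.4 with NaPr, and 90.5, 91.7 and 89.9 untreated against 90.1, 92.4 and 90.1 with NaBu. The groups overlapped, and the changes were 1.63 ± 0.892 and 0.17 ± 0.886 (SE; limma adjusted p = 0.266 and 0.898). PCDHGC4 had no peak at its start in any library, and PCDHGC5 had no tested region.

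Among the other alpha genes, 12 of 13 had no tested start in either experiment. The exception, PCDHA11, had no peak in the 3 untreated libraries of the NaBu experiment and ranks of 36.3, 43.1 and 37.7 with NaBu. The region was called higher, but it passed the filter of 2 libraries only through the treated group and so had to differ; its ranks are a description and its call is no support. Peaks in all 3 treated libraries with 0 of 3 untreated ones were found for 6.42% of all regions with NaBu and for 2 of the 29 in the cluster, this start and 1 region away from starts. The region spans chr5:140868823-140868996, in an annotated UTR of PCDHA11. With NaPr the start had a peak in untreated replicate 2 (rank 29.2) and NaPr replicate 3 (30.7) alone, with 0 in the others.

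The beta genes are single-exon protocadherins between the alpha and gamma groups. With NaBu 1 of 7 tested was called higher, PCDHB8, at 68.7, 60.1 and 67.5 untreated and 73.2, 78.4 and 78.1 treated (change 11.1 ± 3.05 SE, limma adjusted p = 0.024). The groups did not overlap, and the call was lost without NaBu replicate 2 (limma adjusted p = 0.0815) or NaBu replicate 3 (0.0814). With NaPr PCDHB8 was at 40.5, 0 and 45.4 untreated and 67.8, 60.2 and 49.7 treated, again apart, but the change of 30.6 ± 12.5 did not pass (limma adjusted p = 0.162).

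PCDHB10 had no overlap with NaPr either, yet none of the 7 beta starts tested there passed. With a peak in 1 untreated NaPr-experiment library, PCDHB10 passed the filter of 2 libraries only through the treated group. Its separation and change with NaPr are thus a description and no support. Its ranks were 0, 35.6 and 0 untreated and 61.0, 44.7 and 55.3 with NaPr (change 41.8, limma adjusted p = 0.0669), and 36.9, 35.2 and 28.4 untreated and 60.7, 33.8 and 52.3 with NaBu (limma adjusted p = 0.141). PCDHB14, whose region is also the start of a readthrough gene, ENSG00000279983, was at 70.0, 49.1 and 60.3 untreated and 79.6, 67.4 and 67.2 with NaPr, and at 81.4, 83.4 and 86.4 untreated and 77.6, 87.9 and 84.9 with NaBu. These groups overlapped. The changes of PCDHB5, PCDHB11, PCDHB12 and PCDHB13 ran from -4.23 to 13.8 with NaPr and from -2.62 to 27.4 with NaBu, and none passed the test. The 13.8 was that of PCDHB12, which also had a peak in 1 untreated library there and passed the filter only through the treated group.

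Of the gamma genes, PCDHGB1 was called with NaBu. It had a rank of 28.0 in untreated replicate 1 and 0 in untreated replicates 2 and 3, and 45.4, 43.1 and 42.2 with NaBu (change 34.3 ± 8.47 SE, limma adjusted p = 0.0162). Without untreated replicate 2 or 3 the limma adjusted p was 0.0532 and 0.0525. With a peak in 1 untreated library, PCDHGB1 passed the filter of 2 libraries only through the treated group, so its call is no support. With NaPr it was 40.5, 0 and 0 untreated and 0, 39.7 and 0 treated, with no difference in either direction. PCDHGB7 had a peak in all libraries, at 53.5, 55.7 and 54.0 untreated and 43.1, 58.7 and 57.5 with NaPr, and at 46.6, 48.8 and 46.7 untreated and 63.6, 48.5 and 57.4 with NaBu; neither change passed (limma adjusted p = 0.94 and 0.179). PCDHGA10 was at 37.2, 53.5 and 43.3 untreated and 48.8, 51.0 and 52.3 with NaPr (limma adjusted p = 0.659). In the NaBu experiment the region on its start had no peak untreated and ranks of 32.5, 23.8 and 0 with NaBu. That region was admitted to the test by treated libraries alone and was not called.

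**Figure D3:**
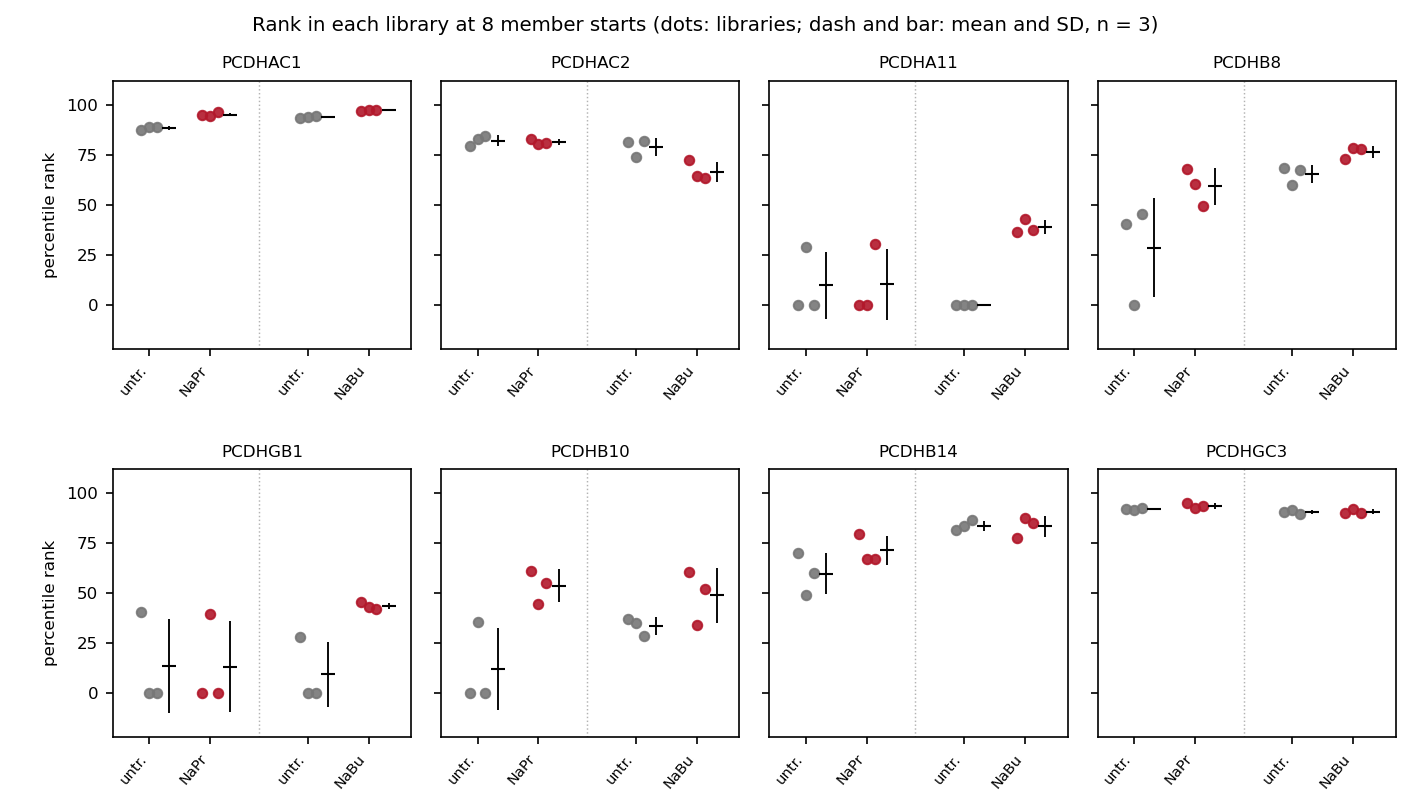
Percentile rank in each library (dots; untreated grey, treated red) with the mean and SD of 3 libraries, at the start of the 5 called members and of PCDHB10, PCDHB14 and PCDHGC3, for the NaPr (left of each panel) and NaBu (right) experiments. PCDHA11 goes from 0 in 3 untreated libraries to between 36.3 and 43.1 with NaBu, whereas PCDHGC3 stays between 89.9 and 95.1 throughout.

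Over the whole cluster, start regions and others together, 33 regions were tested in the NaPr experiment and 3 were called higher and 0 lower, against 4.45% higher and 3.90% lower of all regions. In the NaBu experiment 29 were tested, and 9 were called higher and 2 lower, against 19.6% and 17.3%. On log2 fold enrichment, centred on the median of all regions, the NaBu split was 3 higher and 3 lower of 19 regions with a peak in all libraries, with 10 of 19 changes above 0 and a median of 0.0342. On ranks the median change was 4.86 with NaPr (0.0428 over all regions) and 9.79 with NaBu (0.691). The change was positive in 23 of 33 regions with NaPr, against 50.3% of all regions, and in 22 of 29 with NaBu, against 53.2%. Some of these regions passed the filter of 2 libraries only with their treated group, so that their rise was largely fixed in advance. With NaPr they include PCDHB10 and chr5:141039921-141040464, the latter called higher. With NaBu they include PCDHA11, PCDHGB1 and chr5:141155665-141155854, all called higher. The medians and positive shares are thus a description and no support. Regions with peaks in all 3 treated and 0 untreated libraries were 1 of 33 with NaPr, against 3.04% of all, and no cluster region had the reverse pattern in either experiment, against 1.60% of all regions with NaPr and 3.91% with NaBu.

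**Figure D4:**
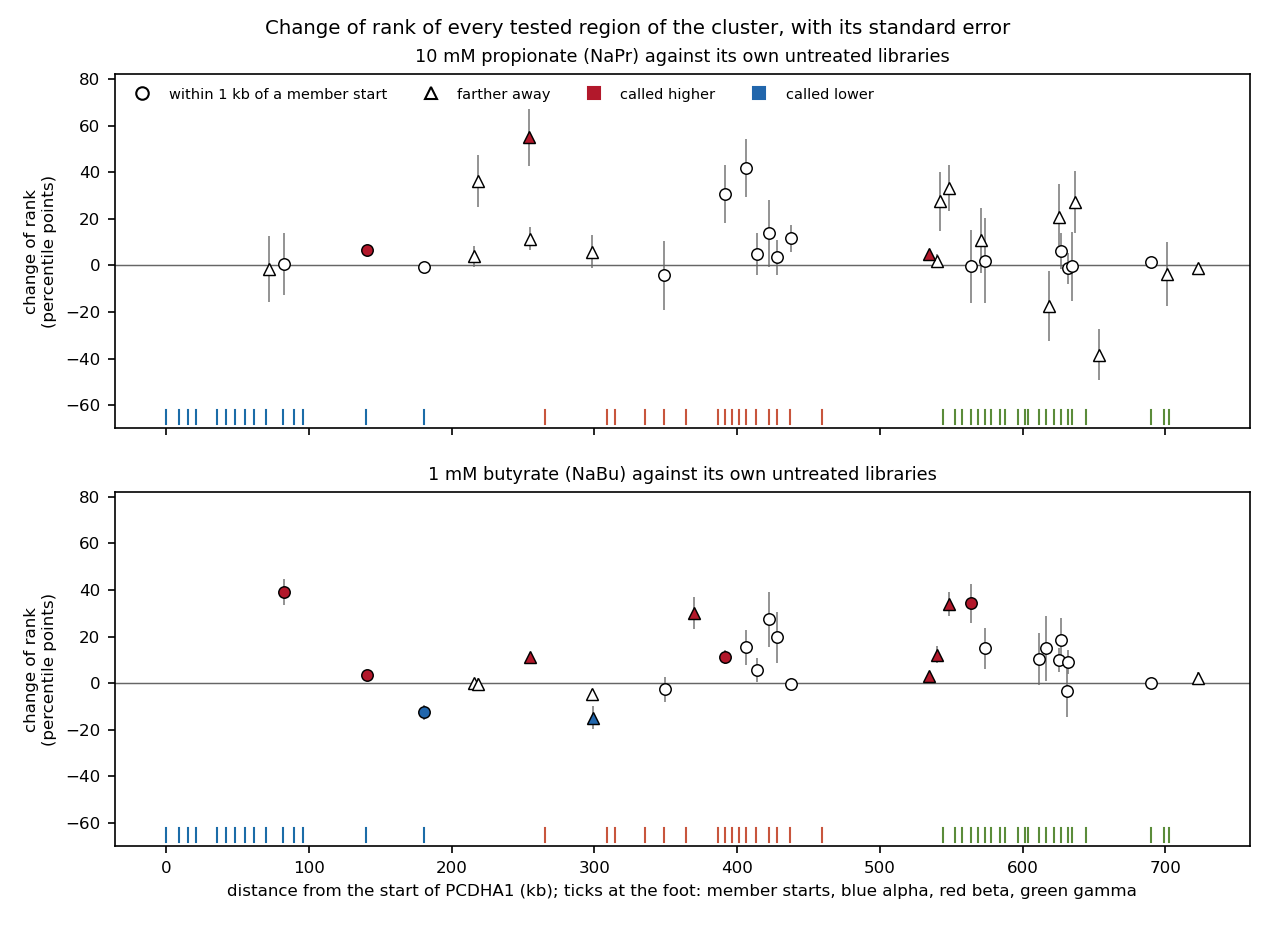
Change of rank (treated minus untreated, percentile points, with the SE) of each tested region against its distance from the PCDHA1 start in kb; circles lie within 1 kb of a member start and triangles farther away, red is called higher and blue lower. With NaPr (33 regions) 3 points are red, and with NaBu (29 regions) 9 are red and 2 blue.

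Away from the starts, the intergenic stretch between the alpha and beta genes held a called region in each experiment, but the 2 calls rest on different peaks. In the NaPr experiment the region at chr5:141039921-141040464 was at 40.5, 0 and 0 untreated and 72.9, 69.4 and 63.0 treated (change 55.0 ± 12.1 SE, limma adjusted p = 0.0279). That region had a peak in 1 untreated library and passed the filter of 2 libraries only through the treated group, so its call is no support. In the NaBu experiment a longer region, chr5:141039926-141041456, was at 84.3, 83.1 and 78.9 untreated and 93.4, 95.1 and 92.0 treated (change 11.4 ± 1.53 SE, limma adjusted p = 0.00161). The NaBu summit lay 896 bp from that of the called NaPr region and -2 bp from that of its neighbour, chr5:141040816-141041456. The groups did not overlap for either call, and the annotation places the lncRNA ENSG00000288892 there. The neighbouring NaPr region was at 68.3, 73.9 and 52.6 untreated and 75.2, 77.7 and 76.0 treated and did not pass (limma adjusted p = 0.189). The NaPr call was lost without untreated replicate 2 (limma adjusted p = 0.0854) or 3 (0.0858), without NaPr replicate 1 (0.0905), 2 (0.0862) or 3 (0.0786), ranked by fold enrichment (0.0614), with no filter (0.0979) and with the replicate block (0.0716). With regions built from summit windows the change was 11.3 (0.195), and in all 9 of 12 alternatives ended the call. The NaBu change fell to 3.84 when ranked by fold enrichment (limma adjusted p = 0.202).

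Letters of a CTCF motif core lay near the summit of the called NaPr region here and of that at PCDHAC1. In 200-base windows around the strongest summit, 1 of the core forms was in these 2 of 33 cluster regions with NaPr and in 12.2% of all regions, and in 1 of 29, that at PCDHAC1, and 11.9% with NaBu. CTCF is the DNA-binding protein that anchors chromatin loops. Only exact letters were counted here too, so sites that depart from the forms were missed, and binding was not measured. The match at PCDHAC1 (chr5:140926603-140926632, match on the plus strand) and that between the alpha and beta genes (chr5:141040354-141040383, match on the minus strand) are shown in capitals with 9 bases on each side.
PCDHAC1: gtctctgcaCCCCTAGGCGGCgctgcgctc
Between alpha and beta: agtcgactcGCCCTCTGCTGGttaaagatc

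Regions rose with NaBu inside PCDHGA1, the first gamma gene, and before it. The start of PCDHGA1 itself had no tested region in either experiment. Inside PCDHGA1, in an annotated UTR 4043 bp after its start, the region chr5:141334056-141334921 was at 45.2, 47.0 and 34.1 untreated and 73.9, 71.8 and 82.6 with NaBu (change 34.0 ± 4.99 SE, limma adjusted p = 0.00226). The groups did not overlap, and the call held under each of its 14 alternatives. With NaPr the shorter region chr5:141334407-141334700 had no peak untreated and ranks of 31.4, 33.5 and 34.8 treated, and was not called. At the start of the lncRNA ENSG00000272070, chr5:141326091-141326726, the ranks were 62.9, 58.1 and 54.9 untreated and 71.7, 74.1 and 67.1 with NaBu (change 12.3 ± 3.48 SE, limma adjusted p = 0.027). That call was lost without untreated replicate 2 (limma adjusted p = 0.0645) or 3 (0.0687) and without NaBu replicate 1 (0.0667) or 2 (0.0792).

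Further regions among the beta genes were called with NaBu. Downstream of PCDHB6, with its summit at -296 bp from the start of the lncRNA ENSG00000290893, the region chr5:141155665-141155854 had no peak untreated and ranks of 19.9, 38.8 and 32.4 with NaBu. It too was called higher but was admitted to the test by the treated libraries alone, so that its ranks are a description. In PCDHB1-AS1, chr5:141084826-141085119 was lower, at 56.3, 58.5 and 57.9 untreated and 35.2, 45.0 and 48.3 treated (change -14.7, limma adjusted p = 0.0492). Leaving out any 1 library except NaBu replicate 3 ended that call, with limma adjusted p of 0.0889, 0.106 and 0.103 without untreated replicates 1, 2 and 3 and 0.0775 and 0.0737 without NaBu replicates 1 and 2.

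**Figure D5:**
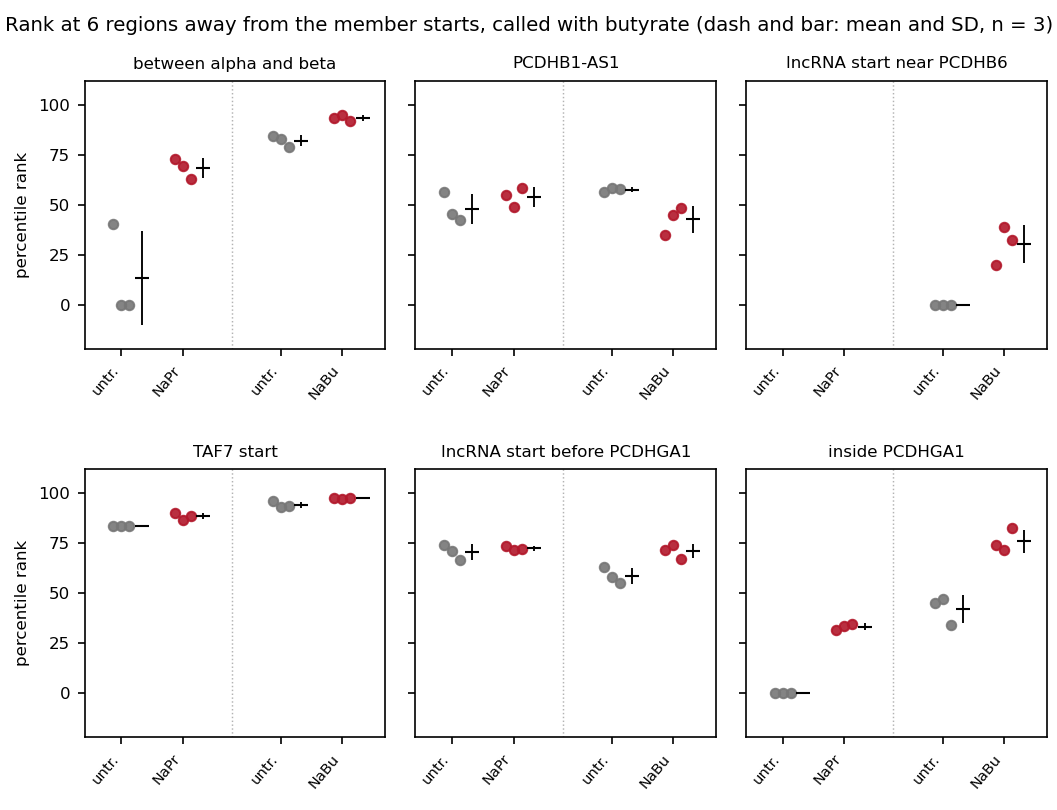
Percentile rank in each library (dots) with the mean and SD of 3 libraries, at 6 cluster regions more than 1 kb from a member start that were called with NaBu, beside the overlapping NaPr region with the larger change; the lncRNA start near PCDHB6 has no tested NaPr region. The TAF7 start lies between 83.5 and 97.9, and the region inside PCDHGA1 rises from 34.1 to 47.0 untreated to 71.8 to 82.6 with NaBu.

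TAF7, a general transcription factor gene that lies between the beta and gamma groups and is no protocadherin, rose in both experiments. Its start was at 83.7, 83.5 and 83.5 untreated and 90.1, 86.9 and 88.6 with NaPr (change 4.94 ± 1.25 SE, limma adjusted p = 0.0422), and at 95.9, 93.0 and 93.9 untreated and 97.5, 97.3 and 97.9 with NaBu (change 3.31 ± 0.757 SE, limma adjusted p = 0.012). Without any 1 library the NaPr call was lost (limma adjusted p 0.0579 to 0.0999), and without NaBu replicate 3 the NaBu value was 0.0552. Ranked by fold enrichment neither passed (0.318 and 0.465). SLC25A2, the mitochondrial carrier gene of the same interval, had no tested start.

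Other genes of the pathway were taken as 3 lists. Of 11 nonclustered protocadherins, which lie outside the cluster, 5 had a tested start; PCDH9 was higher with NaPr (31.1, 29.2 and 45.4 untreated, 69.5, 64.1 and 67.1 treated; change 31.7, limma adjusted p = 0.0314) and PCDH1 with NaBu (95.0, 95.7 and 95.6 untreated, 97.1, 98.0 and 97.8 treated; change 2.21, limma adjusted p = 0.00818). Of 17 genes that organise or silence the cluster, all with a tested start, 0 were higher in either experiment, 1 was lower with NaPr and 5 with NaBu. The NaPr call was DNMT1, the maintenance DNA methyltransferase (change -5.63, limma adjusted p = 0.0379). With NaBu the loop anchor CTCF fell by 5.70 (limma adjusted p = 0.00266), the de novo methyltransferase DNMT3B by 15.0 (0.00185) and the neuronal gene repressor REST by 18.1 (0.00222); SMC3, a cohesin subunit, and DNMT3A also passed. Of 10 intracellular partners, 1 was lower in each experiment, CYFIP1, an actin regulator of the WAVE complex, with NaPr (change -4.71, limma adjusted p = 0.049998) and PTK2, the focal adhesion kinase, with NaBu (-2.96, 0.0376). Over all starts tested, 1.35% were higher and 8.55% lower with NaPr, and 7.26% were higher and 24.4% lower with NaBu. The counts lower in these lists were near those shares or below them, and a single call is no result about a list.

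The line was checked against its markers. All 7 colonic epithelial markers, EPCAM, KRT8, KRT18, KRT19, CDH1, CDX2 and VIL1, had a tested start with a peak in every library. PTPRC, CD3E, DCN and RBFOX3, which mark leukocytes, fibroblasts and neurons, had none, while the starts of CD14, COL1A1, COL1A2, SNAP25, SYP, SYN1 and NEFL had a peak in all libraries, so an open start is no sign of the cell type by itself.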

How the data were processed

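ATAC-seq peak lists of 12 SW480 libraries were used; 8 libraries of the mouse line CT26 were not used here. Per the labels and the study's methods, the authors aligned reads to GRCh38 with Bowtie2 (2.3.1, after cutadapt 1.9.1 and bcl2fastq 2.17.1) in an ENCODE pipeline and called peaks in each library with MACS2 2.1.0. The deposited lists give per peak a fold enrichment (ratio of signal to background), a −log10 p, a −log10 q and a summit, and the authors' peak numbering ends at 300000 in each list. Reads were not analysed here, so the authors' read-count test of differences could not be run and depth is unknown. Libraries of a group shared at most 0.796% of their intervals exactly.

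Overlapping peaks (1 bp or more) of the 6 libraries of an experiment were merged, only merged regions seen in 2 or more libraries were kept, and each library's highest −log10 p was turned into a percentile rank among them (0 for no peak). Ranks were compared with limma 3.58.1 in R 4.3.3 (lmFit and eBayes with trend, 2 groups of 3) and adjusted by Benjamini-Hochberg over all regions, threshold 0.05. A rank test of this kind compares order within a library and not amount. The script was tested on simulated data. GENCODE release 44 gave starts; the region within 1 kb with the highest mean rank stood for a gene. Promoters came from the RefSeq table (GRCh38.p14) and summit windows from GRCh38. Named members were those called, the 6 with the highest mean rank in the untreated libraries, the C-type genes, and the called regions away from starts; PCDHB5, PCDHB10, PCDHB12, PCDHB13 and PCDHGB7, and the genes whose sequences are printed, were added after their values were seen. Members and lists were chosen with earlier results of these data known. Alternatives were ranking by fold enrichment, the top 50000 intervals, a −log10 q of at least 2, summit windows of 250 bp on each side, no filter, log2 fold enrichment, starts within 500 bp, a replicate block and leaving out each library.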

Additional observations from a re-analysis of the deposited data

How the results depend on the processing

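Of the 14 calls named, that of the region inside PCDHGA1 with NaBu held in every alternative that gave a value. PCDHA11 and the region near ENSG00000290893 were admitted through their treated libraries alone, and their calls show nothing of stability. PCDHGB1 with NaBu and the called NaPr region between the alpha and beta genes each had a peak in 1 untreated library. They also passed the filter only with their treated group. Over the 14, the direction was kept in 193 of 195 values. That total includes the calls that passed the filter only with their treated group. The filter largely fixed their direction, so the total is no measure of stability. The NaPr calls depended on single libraries: over all regions 5758 were higher and 5051 lower, and 0 and 0 without NaPr replicate 1, 2 or 3; the cluster count of 3 higher ranged from 0 to 2 and the member count of 1 from 0 to 1, with 0 lower throughout. For NaBu, leaving out a library gave 7 to 9 cluster regions higher and 0 to 2 lower, and 3 to 4 members higher and 0 to 1 lower. Treated libraries had on average 3.33 more member starts with a peak with NaPr (2.33 to 4) and 3.67 with NaBu (3 to 4), and 5.33 more intervals in the cluster with NaPr (0.5 to 9.33) and 5.33 with NaBu (4.67 to 6.17).

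Ranked by fold enrichment, 1 cluster region and 0 members were higher with NaPr, and 5 regions with NaBu. On log2 fold enrichment over regions with a peak in all libraries, median-centred, NaPr gave 0 regions and 0 members higher and NaBu 3 and 2, with 3 regions lower; not centred, NaPr gave 0 and 0 and NaBu 4 regions, with 2 lower. Centring moved the median change of all NaPr regions from 0.119 to -0.0436 (log2) and the calls from 1495 higher and 136 lower to 3468 and 3624. With no filter, 1 region was higher with NaPr and 1 lower with NaBu. With the top 50000 intervals, NaBu gave 1 region lower and 2 members higher, and the excess was 1 member start and 3 intervals. Summit windows gave 1 region lower with NaBu. With the replicate number as a block, 1 cluster region was higher with NaPr and 1 lower with NaBu, and over all NaPr regions 381 were higher and 251 lower. Deviations of same-numbered libraries correlated at only 0.00693 to 0.0436, and those of differently numbered ones at -0.0318 to 0.018. Such weak correlations cannot show whether same-numbered libraries were handled together.

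Sign changes were seen for PCDHAC1 with NaBu (-0.17 by fold, -0.0437 on centred log2 fold), PCDHGC3 with NaPr (-0.0402 on centred log2 fold) and with NaBu (-1.53 by fold, -0.12 and -0.0734 on log2 fold centred and not; -0.63 to 0.70 when a library was left out), and, leaving out 1 library, PCDHB11 with NaPr (-1.05 without untreated replicate 1, to 14.7), PCDHAC2 with NaPr (-2.29 to 0.38, the latter without untreated replicate 3) and PCDHB14 with NaBu (-2.64 to 2.76, positive without untreated replicate 3 or NaBu replicate 1). The cause was not tested in any of these. What the lists cannot show is a start with a peak too weak to be listed, and members with no peak were not shown to be closed in every cell.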
